A study of Mus musculus with 6 samples.

Results

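The 10 genes described here are Pink1 and 9 further genes of mitophagy, the removal of damaged mitochondria by autophagy. They were taken by gene name from the 39171 gene identifiers listed for each RNA sequencing library, and each name matched 1 identifier. The libraries came from CD4+ T cells of the spleen of premenopausal C57BL/6 mice, 1 library per mouse. The Control group (3 mice) was untreated, at 10 weeks of age before a control period of 2 weeks. The AngII group (3 mice) was of the same strain and age and had angiotensin II, the peptide that raises blood pressure, from an osmotic minipump for 14 days at 800 ng/kg/min. Whether the Control mice carried a pump is not given in the sources used here. Cells were taken with a kit for CD4+ T cell isolation, with no later sort named in the labels, and RNA of other spleen cells was present. The comparison asks which transcripts of these cells differ under a hypertensive stimulus in premenopausal animals. Pink1 was singled out because its difference between AngII and Control was already known from these libraries, and the other 9 genes were added as its pathway with those results in view. The differences of the 10 genes are therefore given as a description, with no test.

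PINK1 is a protein kinase that healthy mitochondria import and degrade. On mitochondria that have lost their membrane potential it stays on the outer membrane, where it phosphorylates ubiquitin, and the ubiquitin chains on the mitochondrion are then read by cargo adaptors that also bind the autophagosome proteins of the LC3 and GABARAP families. BNIP3L and FUNDC1 are receptors of the outer membrane that bind these proteins directly, without ubiquitin. T cells remodel their mitochondria when they leave and re-enter the resting state, and BNIP3L is best known for clearing mitochondria from maturing red blood cells.

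Pink1 and Park7 share a promoter feature and had differences of opposite sign between AngII and Control, and their promoters are shown for that reason. RefSeq promoter windows (250 bases before to 50 after the start site, build GRCm38.p6) were found for 9 of the 10 genes, all except Bnip3l. The letters CACGTG (an E-box), GTAAACA (forkhead), TGACNNNGC (antioxidant response element) and the nuclear respiratory factor 1 (NRF1) motif (GCGC, then A and any base, then GCGC) were searched on both strands, and no matches overlapped in these genes. Capitals mark the NRF1 letters, which begin 10 bases before the start site in Pink1 (read on the opposite strand) and 128 bases before it in Park7. The Pink1 window is chr4:138326247-138326546 and the Park7 window chr4:150909872-150910171, both on the minus strand and printed 5′ to 3′.
Pink1: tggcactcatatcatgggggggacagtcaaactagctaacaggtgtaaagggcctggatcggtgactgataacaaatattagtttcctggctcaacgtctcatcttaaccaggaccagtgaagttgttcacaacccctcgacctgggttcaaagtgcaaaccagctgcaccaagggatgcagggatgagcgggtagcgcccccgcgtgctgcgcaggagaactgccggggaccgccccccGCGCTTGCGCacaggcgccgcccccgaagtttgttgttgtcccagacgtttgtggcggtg
Park7: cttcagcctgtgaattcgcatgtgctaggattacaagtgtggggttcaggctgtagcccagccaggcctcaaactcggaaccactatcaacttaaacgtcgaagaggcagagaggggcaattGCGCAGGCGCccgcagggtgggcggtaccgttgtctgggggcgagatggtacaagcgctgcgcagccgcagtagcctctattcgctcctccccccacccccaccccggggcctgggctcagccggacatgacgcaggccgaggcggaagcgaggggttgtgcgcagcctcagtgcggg
Of 32851 promoter windows of this length, 4.6% held the NRF1 letters, 7.15% the E-box, 3.65% the forkhead letters and 12.4% the antioxidant response letters. The other match among the members was TGACGAAGC, 205 bases before the downstream start site of Tax1bp1. A match describes the letters of the window and does not show that a factor binds there.

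Levels are given in FPKM, a fragment count divided by transcript length and library size, so they can be set side by side between genes. The members spanned a wide range. Sqstm1, which encodes the adaptor p62, was highest at 169.8 FPKM over the 6 libraries (SD 14.5), above 96.2% of the 11842 genes whose mean reached 1 FPKM. Park7, which encodes the redox-sensitive protein DJ-1, followed at 113 (SD 8.84), then Bnip3l at 86.1 (SD 3.70), Tax1bp1 at 73.4 (SD 3.14), Pink1 at 55.6 (SD 7.90), Fundc1 at 28.1 (SD 1.36) and Calcoco1 at 18.1 (SD 1.08). Ulk1 was at 8.09 (SD 1.07), Usp30 at 7.28 (SD 0.233) and Optn, lowest, at 2.15 (SD 0.456). For 8 of the 9 pairs of neighbours in this order the library values did not overlap, and the order held in 6 of 6 libraries. Ulk1 and Usp30 overlapped, with Ulk1 higher in 4 of 6 libraries, so these neighbours did not differ beyond their spread. All 10 members passed the filter of a mean FPKM of 1.

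**Figure D1:**
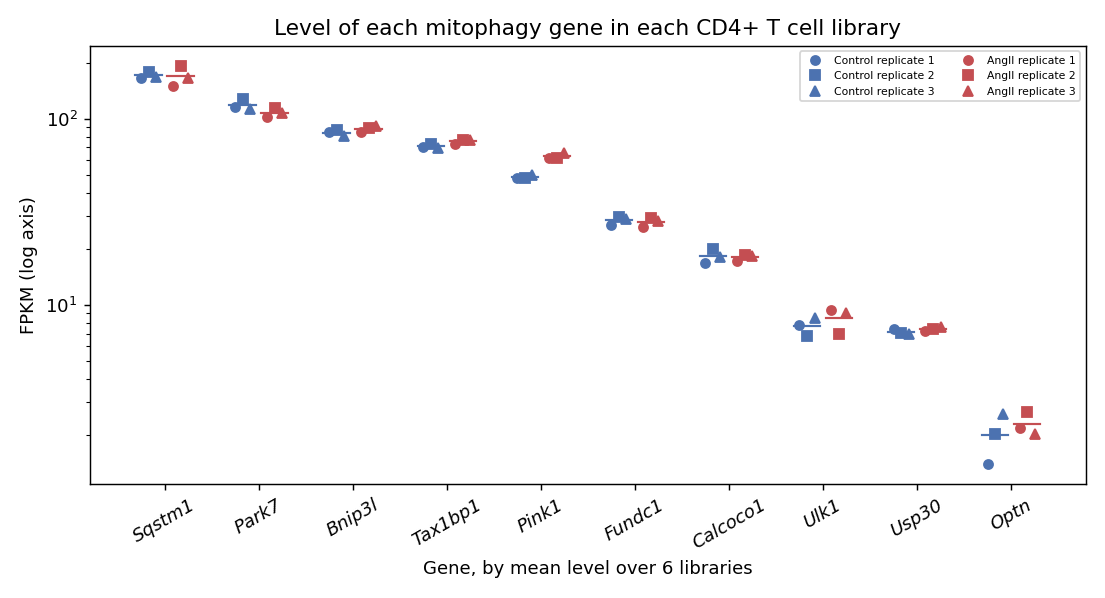
FPKM (log axis) of the 10 mitophagy genes in the 3 Control (blue) and 3 AngII (red) libraries, ordered by mean level. Marker shapes stand for replicates 1 to 3, and lines are group means. Sqstm1 is highest and Optn lowest, and the groups part clearly for Pink1, at 47.8 to 49.6 FPKM in Control and 61.2 to 65.4 in AngII.

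Few transcripts of the whole table were called as different between the groups. In limma, 4 of 11842 genes passed an adjusted p of 0.05 (0.0338%), 0 as higher in AngII (0.0%) and 4 as lower (0.0338%), against 73 and 135 genes whose unadjusted p was under 0.05. The count was 8 without Control replicate 1, 0 of them higher. It was 7 without Control replicate 3 (2 higher) and 9 without AngII replicate 3 (5 higher), and 1 of 4 and 2 of 6 called genes were higher without AngII replicates 1 and 2. No member was among the called genes (0 of 10). AngII had the higher mean in 6 members and the lower in 4, beside 48.0% and 52.0% of all genes tested. All 3 AngII libraries lay above all 3 Control libraries for 2 members, Pink1 and Tax1bp1, and below them for 0. Over all genes the groups did not overlap for 5.84%, with AngII higher for 2.36% and lower for 3.48%. The median difference of the members, as log2(FPKM + 1) in AngII minus Control, was 0.06, and 0.04 without Pink1, beside -0.004 over all genes tested. Since the members were chosen with this comparison known, these counts describe them and support nothing further.

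Pink1 (ENSMUSG00000028756, chromosome 4, 138313409 to 138326307, minus strand), the kinase at the head of the pathway, was at 47.8, 48.2 and 49.6 FPKM in Control replicates 1 to 3. In AngII it was at 61.2, 61.4 and 65.4 FPKM. The lowest AngII library lay above the highest Control library, and the spread within each group was small (SD 0.976 and 2.34, n = 3). The group means of 48.5 and 62.7 FPKM stand in a ratio of 1.29. On the log2(FPKM + 1) scale the difference was 0.36 (limma SE 0.05), and 319 of the 11842 genes had a larger positive one. With any 1 library left out it lay between 0.33 and 0.38. GENCODE M21 places 2 microRNA genes on exons of Pink1, Mir7019 and Gm27646, and both were listed at 0 in all libraries.

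Ulk1 (ENSMUSG00000029512, chromosome 5, 110784488 to 110810097, minus strand) encodes the kinase that starts autophagosome formation. It was at 7.82, 6.78 and 8.53 FPKM in Control and 9.35, 6.999 and 9.08 in AngII. Replicate 2 was the low library in each group, and the groups overlapped. The log2 difference was 0.12 (SE 0.13), with a range of 0.04 (without Control replicate 2) to 0.23 (without AngII replicate 2) when 1 library was left out. It was 0.18 without Control replicate 3, and 0.05 and 0.07 without AngII replicates 1 and 3.

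The receptors that bind autophagosome proteins directly overlapped between the groups. Bnip3l (ENSMUSG00000022051, chromosome 14, 66985239 to 67008877, minus strand) was at 84.6, 87.0 and 80.5 FPKM in Control and 84.5, 88.9 and 91.0 in AngII. AngII replicate 1 lay among the Control libraries, and the log2 difference was 0.07 (SE 0.06). It was 0.04 without Control replicate 3 or AngII replicate 3, and at most 0.10 with another library left out. Fundc1 (ENSMUSG00000025040, chromosome X, 17556564 to 17572325, minus strand), a receptor known from hypoxia-induced mitophagy, was at 26.9, 29.5 and 28.7 FPKM in Control and 26.1, 29.2 and 28.0 in AngII. Its groups covered nearly the same range, with a log2 difference of -0.03 (SE 0.07) that lay between -0.07 (without Control replicate 1 or AngII replicate 2) and 0.01 (without AngII replicate 1). Erythroid markers, which mark the cells BNIP3L is best known from, summed to 362.7, 597 and 561 FPKM in Control and 192, 518 and 807 in AngII (11 of 12 genes matched, none at 0 in all libraries, 5 of 9 tested with higher means in AngII). In AngII the order of the libraries was the same for the sum and for Bnip3l. In Control both were highest in replicate 2, but Bnip3l was lowest in replicate 3 and the sum in replicate 1. The part of erythroid RNA in the Bnip3l values was not tested. In bulk samples such as these, fewer cells of a type and less RNA per cell cannot be told apart.

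Park7 and Usp30 act on the pathway from outside the receptors. Park7 (ENSMUSG00000028964, chromosome 4, 150897133 to 150914437, minus strand), whose product protects mitochondria from oxidation, had the lowest difference among the members. It was at 116, 127 and 113 FPKM in Control and 101, 114 and 107 in AngII. AngII replicates 1 and 3 lay below every Control library, and AngII replicate 2 lay just above Control replicate 3. The log2 difference was -0.14 (SE 0.07), and it lay between -0.19 (without AngII replicate 2) and -0.09 (without Control replicate 2) with 1 library left out. Usp30 (ENSMUSG00000029592, chromosome 5, 114065461 to 114124720, plus strand) encodes the deubiquitinase that removes ubiquitin chains from mitochondria. It was at 7.42, 7.08 and 6.96 FPKM in Control and 7.22, 7.41 and 7.58 in AngII. The groups overlapped, with a log2 difference of 0.04 (SE 0.06) that lay between 0.03 (without Control replicate 3 or AngII replicate 3) and 0.07 (without Control replicate 1). Usp30 had the smallest spread of the members relative to its level (3.2% over the 6 libraries). Exons of Alkbh2 (mean 6.72 FPKM) overlap Usp30 on the opposite strand. Since strand use in counting is not given in the sources used here, reads of these genes may not have been told apart.

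Among the 4 cargo adaptor genes, Tax1bp1, Sqstm1 and Optn encode proteins that bridge ubiquitin on mitochondria and the autophagosome. Tax1bp1 (ENSMUSG00000004535, chromosome 6, 52713729 to 52766780, plus strand) was at 70.4, 73.2 and 69.6 FPKM in Control and 73.4, 77.1 and 76.9 in AngII. Its groups did not overlap, but only just, since the lowest AngII and the highest Control library were at 73.4 and 73.2 FPKM. The log2 difference was 0.09 (SE 0.05). Sqstm1 (ENSMUSG00000015837, chromosome 11, 50199366 to 50210827, minus strand) was at 166, 179 and 167 FPKM in Control and 149, 192 and 166 in AngII. The AngII libraries held both the lowest and the highest value, and their SD of 21.8 FPKM was above the 6.86 of Control (n = 3). Its log2 difference of -0.02 (SE 0.10) lay between -0.12 (without AngII replicate 2) and 0.07 (without AngII replicate 1) with 1 library left out. It was -0.04 without Control replicate 1 or 3, 0.01 without Control replicate 2, -0.01 without AngII replicate 3, and 0.02 with quantile normalization. Exons of Mrnip overlap Sqstm1 on the opposite strand, with Mrnip listed at a mean of 0.645 FPKM.

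Calcoco1 (ENSMUSG00000023055, chromosome 15, 102706777 to 102722178, minus strand), an adaptor known from turnover of the endoplasmic reticulum, was at 16.8, 19.9 and 18.0 FPKM in Control and 17.3, 18.4 and 18.2 in AngII. All AngII values lay within the Control range. The log2 difference was -0.02 (SE 0.08). It was -0.07 without Control replicate 1, -0.03 without AngII replicate 2 or 3, 0.01 without AngII replicate 1 and 0.04 without Control replicate 2. Optn (ENSMUSG00000026672, chromosome 2, 5020642 to 5064051, minus strand), which encodes the adaptor optineurin, was at 1.40, 2.03 and 2.58 FPKM in Control and 2.18, 2.66 and 2.03 in AngII. The Control libraries were spread widely (29.4% of their mean), and the groups overlapped. Its log2 difference of 0.15 (SE 0.18) was -0.01 without Control replicate 1, 0.28 without Control replicate 3 and 0.07 without AngII replicate 2.

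**Figure D2:**
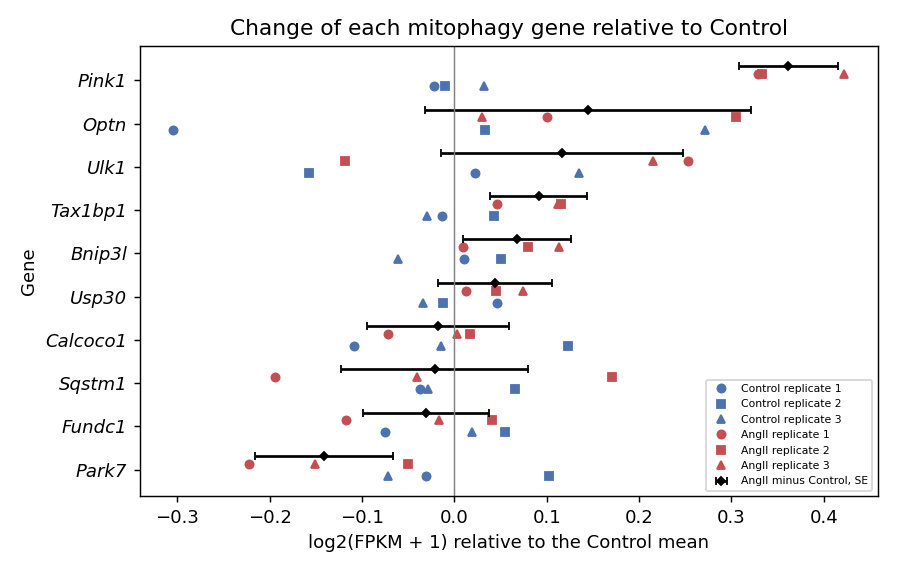
Each gene in each library as log2(FPKM + 1) minus the Control mean (points, shapes for replicates), with the difference AngII minus Control and its limma SE (black diamonds and bars). Pink1 stands at 0.36 with AngII apart from Control, while the other 9 genes lie between -0.14 (Park7) and 0.15 (Optn).

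Ratios within a library do not depend on how libraries were scaled, so Pink1 was set against each other member. The ratio of Pink1 to the other gene was higher in every AngII library than in every Control library for 7 of 9 genes. Against Park7 it was 0.412, 0.379 and 0.441 in Control and 0.603, 0.537 and 0.613 in AngII. Against Usp30, the steadiest member, it was 6.44, 6.80 and 7.13 in Control and 8.48, 8.29 and 8.62 in AngII. Against the adaptor Calcoco1 it was 2.42 to 2.84 in Control and 3.33 to 3.58 in AngII. For Ulk1 (5.82 to 7.11 and 6.55 to 8.78) and Optn (19.3 to 34.1 and 23.1 to 32.3) the ratios overlapped. These ratios share the Pink1 values that singled the gene out, and they show an unequal difference between genes, not which of them differed.

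**Figure D3:**
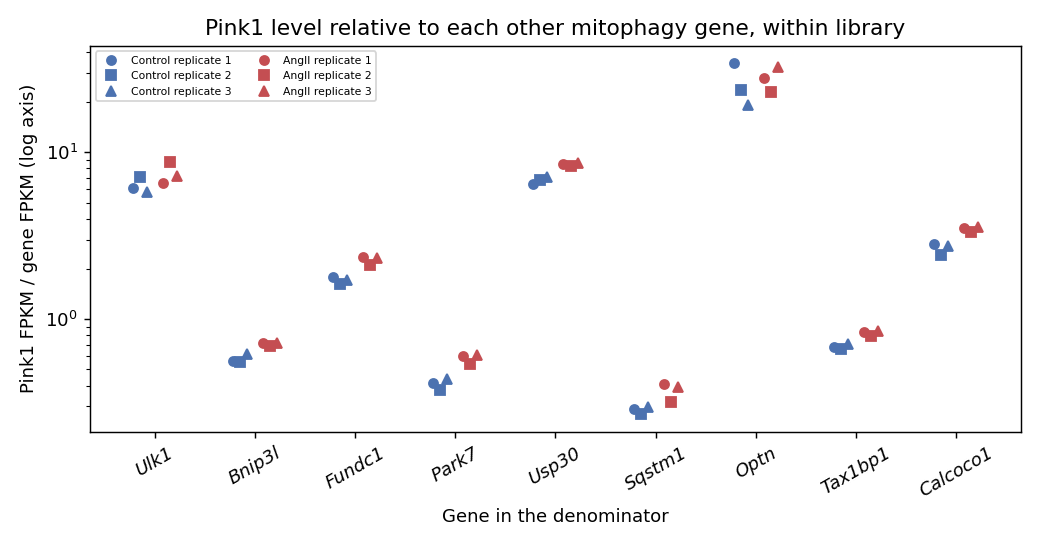
Pink1 FPKM divided by the FPKM of each other mitophagy gene in the same library (log axis), Control in blue and AngII in red. AngII lies above Control without overlap for 7 of 9 genes, and the groups overlap for Ulk1 and Optn.

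Libraries differed in ways that the groups do not fully explain. Summed FPKM lay between 613674 and 717286, lowest in AngII replicate 1. That library also held the lowest AngII value of 8 of the 10 members, but the share of all genes lowest there was not counted. CD4 T cell markers summed to 3119 to 3674 FPKM in Control and 3162 to 3467 in AngII (7 genes, 6 with lower means in AngII). Neutrophil markers summed to 11.0, 11.3 and 57.2 FPKM in Control and 31.7, 98.8 and 89.7 in AngII, with higher means in AngII for 10 of 10 genes tested. Within Control the neutrophil sum and Pink1 had the same order of libraries, and so did the macrophage, platelet, B cell, and CD8 and NK sums. In AngII the neutrophil sum and Pink1 were both lowest in replicate 1, but the sum was highest in replicate 2 and Pink1 in replicate 3. Of these sums, that of the CD8 and NK markers alone had the Pink1 order in AngII as well. Platelet markers summed to 84.2 to 266 FPKM in Control and 165 to 224 in AngII, with higher means in AngII for 9 of 9 genes (median log2 difference 0.49). Immediate early genes such as Fos, which respond to cell handling, summed to 4128, 4459 and 2622 FPKM in Control and 2402, 3772 and 2755 in AngII, with lower means in AngII for 10 of 10 genes (median -0.41). B cell markers (654 to 1149 FPKM in Control, 582 to 945 in AngII) had lower means in AngII for 7 of 7 genes tested (median -0.13), and CD8 and NK markers (408 to 678 and 402 to 503) also for 7 of 7 (median -0.27). Stromal markers (58.9 to 67.2 and 65.2 to 83.6) had higher means for 4 of 4 genes tested (median 0.39). The sums overlapped between the groups for each of these lists, and no marker was at 0 in all libraries. The part of these cell types and of handling in the Pink1 values, and in those of the other members, was not tested.

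The other genes of the pathway were taken from 9 lists that do not hold the members. Of 115 listed genes 111 were tested, and 0 passed limma as higher or lower in AngII, with 1 at an unadjusted p under 0.05 and the smallest adjusted p at 0.9999. The count at an unadjusted p under 0.05 was 10 without AngII replicate 2 and 2 without Control replicate 1. It was 0 when AngII replicate 1, AngII replicate 3 or Control replicate 2 was left out. The share of all genes under it in these fits was not counted, so these counts are not shown to be particular to the lists. In the authors' deposited table, 109 of these genes were tested, with 0 at a q under 0.05 and 0 at a p under 0.05. AngII had the higher mean in 63 genes and the lower in 48, beside 48.0% and 52.0% of all genes tested, with a median log2 difference of 0.01. The groups did not overlap for 9 genes as higher and 2 as lower, beside 2.36% and 3.48% of all genes tested. The latter 2 were Tomm22 and Mfn2, named after their values were seen. All 111 differences lay between -0.18 and 0.20, below that of Pink1. Since Pink1 was singled out for its difference in these same libraries, its place above the lists supports nothing further. Apart from Tomm22, Mfn2 and Calcoco2, each gene named here was picked by the size of its difference within its list, or fixed by name.

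Of 23 tested genes that act with PINK1, 11 had higher and 12 lower means in AngII, and 0 passed in limma. Their median log2 difference was -0.01, and it was 0.0007 with median-of-ratios scaling and 0.01 with quantile normalization. With 1 library left out, 9 to 13 of the 23 had higher means, beside 42.0% to 52.0% of all genes tested. Mfn1, a fusion GTPase of the outer membrane, was at 6.97, 6.85 and 6.18 FPKM in Control and 7.48, 7.90 and 7.95 in AngII. It was the 1 gene at an unadjusted p under 0.05, with a difference of 0.20 (SE 0.07) that did not pass (limma adjusted p = 0.9999). Its relative Mfn2 had values in the opposite direction, 14.6 ± 0.638 and 13.7 ± 0.317 FPKM (SD, n = 3). The ubiquitin ligase gene Mul1 had a difference of -0.18 (SE 0.15), and Tomm7, a subunit of the import channel that holds PINK1 at the outer membrane, one of -0.18 (SE 0.11).

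None of the other mitophagy receptors and cargo adaptors passed the threshold in limma. Of 10 receptors and regulators, 5 had higher and 5 lower means (3 to 6 higher with 1 library left out). Bnip3, the hypoxia-induced relative of Bnip3l, was at 6.50, 6.67 and 6.43 FPKM in Control and 5.66, 7.53 and 6.47 in AngII, far below Bnip3l. The largest differences in this list were those of Fkbp8 (-0.09), Fundc2 (-0.08) and the inner membrane receptor Phb2 (-0.08), none past the threshold. In the list of other cargo adaptors and the kinase TBK1 with its binding partners, 5 of 6 tested genes had higher means. That count was 2 without AngII replicate 3, where 42.0% of all genes tested had higher means. The largest differences were those of Tollip (0.09), Nbr1 (0.07) and Tank (-0.04). Calcoco2 was listed at 0 in Control and in 2 of the AngII libraries, and such a 0 may stand for an estimate that failed.

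No core autophagy gene passed the threshold in limma. In the initiation and nucleation list, which holds the partners of ULK1 and the lipid kinase complex, 12 of 14 genes had higher means in AngII, with a median of 0.05. That count was 8 of 14 without Control replicate 3 (median 0.01) and 9 of 14 without AngII replicate 3 (median 0.02). Over all genes tested, 44.4% and 42.0% had higher means in these fits (each median -0.02), beside 48.0% in the main fit. The list median was 0.12 without AngII replicate 2 and 0.03 without AngII replicate 1. Ulk2, which shares the role of Ulk1, was at 15.6, 16.4 and 16.2 FPKM in Control and 17.6, 16.9 and 17.6 in AngII, without overlap (difference 0.11, SE 0.05). Atg9a, a lipid scramblase of growing autophagosomes, had a difference of 0.17 (SE 0.12) and the lipid transfer gene Atg2a 0.08 (SE 0.09). In the list of LC3 and GABARAP proteins and their conjugation enzymes, 10 of 15 genes had lower means, with a median of -0.03 that was 0.02 without Control replicate 2 and -0.002 without AngII replicate 1. Map1lc3b, the most used marker of autophagosomes, was at 78.8, 80.1 and 74.8 FPKM in Control and 69.4, 79.3 and 77.9 in AngII. Atg16l1 had a difference of -0.17 (SE 0.11), Atg4c 0.16 (SE 0.20) and Gabarapl1 0.16 (SE 0.22).

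Gabarapl1 was at 10.9, 13.2 and 17.8 FPKM in Control and 14.4, 19.7 and 12.7 in AngII. Macrophage markers (12 genes, none at 0, 9 with higher means in AngII) summed to 1257, 1790 and 2112 FPKM in Control and 1616, 3078 and 1559 in AngII. The libraries with the highest and lowest Gabarapl1 value within each group were also those with the highest and lowest macrophage sum. The same held for Atg4c, at 1.83, 2.57 and 3.16 FPKM in Control and 2.67, 3.74 and 2.40 in AngII. Pink1 had the same order as the macrophage sum in Control (47.8, 48.2 and 49.6 FPKM), whereas in AngII it was highest in replicate 3, where the sum was lowest. The part of macrophage RNA in these values was not tested.

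The remaining lists cover the later steps of autophagy and the upkeep of mitochondria. Of 12 genes of autophagosome fusion with the lysosome, 7 had higher means. Stx17, the fusion protein of the autophagosome, had a difference of 0.17 (SE 0.09), Tbc1d15 of 0.13 (SE 0.07) and Vamp8 of -0.13 (SE 0.10). Among 10 genes that control autophagy, 5 had higher means. Tfeb, the main activator of lysosomal genes, was at 17.1, 16.5 and 19.9 FPKM in Control and 16.7, 15.1 and 18.9 in AngII. Its relative Tfe3 had a difference of 0.17 (SE 0.09), and the AMP-activated kinase genes Prkab2 and Prkaa1 had 0.11 (SE 0.19) and 0.09 (SE 0.10). Of 8 fission and fusion genes 5 had higher means, with Mtfp1 at 0.12 (SE 0.14), Opa1 at 0.11 (SE 0.07) and Fis1 at -0.11 (SE 0.08). Of 13 genes of mitochondrial biogenesis 8 had higher means, with Polg2 at -0.11 (SE 0.09), Esrra at 0.08 (SE 0.09) and Polrmt at 0.07 (SE 0.08). None of these genes passed the threshold in limma, and each had an adjusted p of 0.9999. With 1 library left out, the genes with higher means numbered 6 to 8 of 12 for fusion with the lysosome. For control of autophagy they numbered 4 to 7 of 10, and for fission and fusion 3 to 6 of 8. For biogenesis they numbered 5 to 11 of 13. Over all genes tested that share was 42.0% (without AngII replicate 3) to 52.0% (without Control replicate 2).

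**Figure D4:**
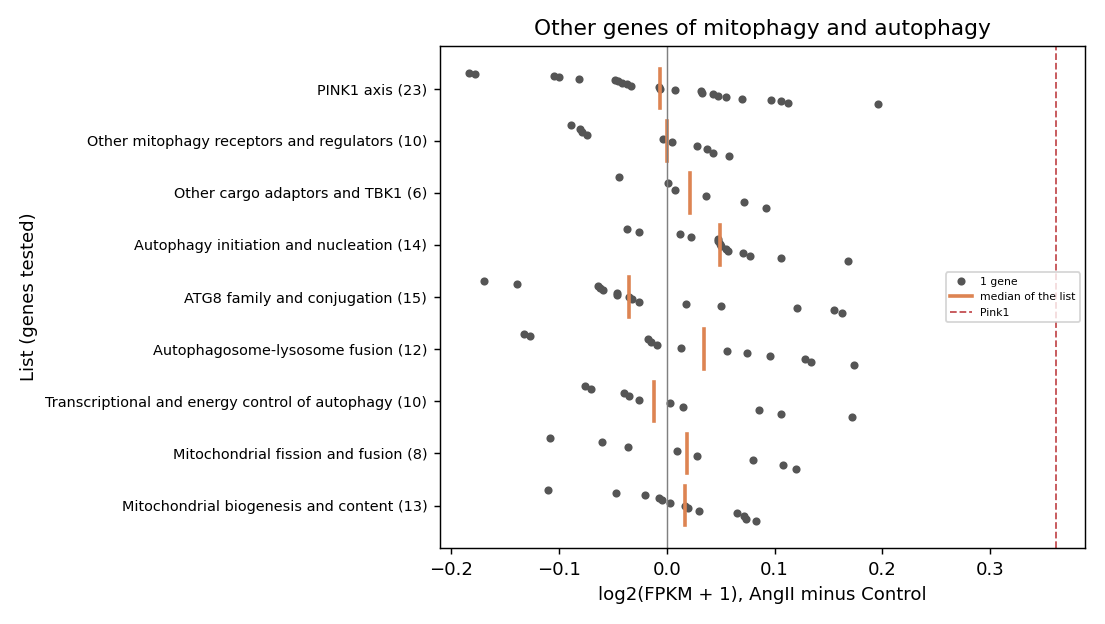
Difference in log2(FPKM + 1), AngII minus Control, of each tested gene in the 9 pathway lists (grey points; list sizes in brackets), with the list median (orange) and Pink1 (dashed red line). The 111 genes lie between -0.18 and 0.20, and Pink1, which was singled out for its difference in these libraries, at 0.36.

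Likeness to Pink1 was measured as the root mean square difference between log2(FPKM + 1) profiles over the 6 libraries, each centred on its own mean, among 7844 genes whose mean reached 5 FPKM. A gene with the same value in every library would have 0.18, and the median gene had 0.22. The 5 nearest genes were Rpap2 (0.07), which encodes a phosphatase of RNA polymerase II, Lmna (0.07), which encodes lamin A and C, the forkhead repressor gene Foxn3 (0.08), Mbtps2 (0.08), which encodes a protease that releases membrane-bound transcription factors, and Inpp5a (0.08), a phosphatase of inositol phosphates. Foxn3 was at 29.8, 30.5 and 27.1 FPKM in Control and 35.4, 39.0 and 41.3 in AngII. Rpap2 was at 7.18, 7.15 and 7.56 FPKM in Control and 9.22, 8.20 and 9.71 in AngII. Each of the 5 had all AngII libraries above all Control libraries, which the measure favours because the group difference makes up most of the Pink1 profile. Among the members, Tax1bp1 was the nearest to Pink1, at rank 200 of 7844 (0.14), followed by Bnip3l at rank 464 (0.16) and Usp30 at rank 686 (0.16). Park7 was the farthest of those ranked, at 6418 (0.27), and Optn was below the level required.

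**Figure D5:**
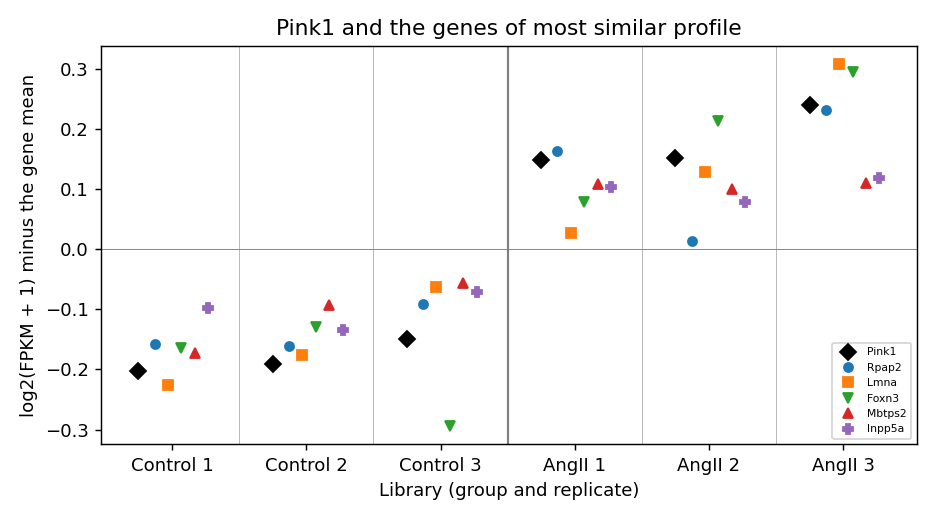
log2(FPKM + 1) minus the mean over 6 libraries for Pink1 (black diamonds) and the 5 genes of most similar profile, by library. All 6 genes lie below 0 in the 3 Control libraries and above 0 in the 3 AngII libraries.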

How the data were processed

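RNA of splenic CD4+ T cells from 6 mice (3 Control, 3 AngII) was sequenced from Illumina TruSeq libraries, per the labels' protocols. The authors deposited FPKM, with 1 file per library and 39171 gene identifiers. Per the submitters' processing notes, Trimmomatic 0.32, TopHat2 2.1.1, Cuffdiff and the build GRCm38.p3 were used. For annotation, strand use and the program that wrote the library files, nothing was given in the sources used here. For the series as a whole, the authors' deposited table holds a p-value and q-value per gene for conditions that are only numbered, so it gave no direction. Fragment counts per library, and so depth, are unknown from FPKM, and no interval that needs depth is given.

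Members were matched by the gene name in the files. List genes were matched through GENCODE M21 symbols (37605 identifiers, 67 from the files, 1499 without a symbol), and all 115 pathway genes were matched. Positions are those of GENCODE M21 (GRCm38). FPKM is not a count, so log2(FPKM + 1) was tested with limma 3.58.1 in R 4.3.3 (eBayes with trend, two-sided) for genes whose mean reached 1 FPKM, with Benjamini-Hochberg adjustment over all of them and a threshold of 0.05. The added 1 shrinks the differences of genes of low level. The code was tested on simulated data. The SE is that of the fit. Tables and figures were made in Python 3.11.15 with numpy 2.4.6, pandas 2.3.3 and matplotlib 3.10.9.

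The members and lists were chosen with earlier results of these data known. Genes named were the members, the 3 genes of largest difference in each of the 9 lists, Bnip3, Map1lc3b and Tfeb, and the 5 nearest to Pink1 in profile. Of the genes first listed, 1 is not reported here. For the latter, antigen receptor segments, pseudogenes, small RNAs, clone names and predicted genes were not ranked. Mfn2, Tomm22, Calcoco2 and the promoter motifs were chosen after values were seen. The alternatives tried were pseudocounts of 0.1 and 5, a filter at 5 FPKM or none, quantile or median-of-ratios scaling, eBayes without trend, a block for the replicate number, and each library left out in turn.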

Additional observations from a re-analysis of the deposited data

How the results depend on the processing

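Under 14 alternatives (8 settings and 6 libraries left out in turn) the number of pathway genes past the limma threshold was 0 in each, and no member passed in any. The number of all genes past it was 4 in the main fit, 5 with a pseudocount of 0.1 or without trend, and 7 with no filter on low values. It was 4 to 9 with 1 library left out. With no filter more genes were tested, and the cause of the other moves was not tested. The median difference of the members lay between 0.03 and 0.07, and that of Pink1 between 0.33 and 0.39, the highest value with quantile normalization. Each of 139 member values under an alternative moved by less than the SD between replicates. For the filter, trend and block settings and the libraries left out, this was fixed in advance and shows no robustness. The settings leave a member's difference unchanged, and leaving out 1 of 3 libraries cannot move it by that SD. It was open only for the pseudocounts and scalings. Fundc1, Sqstm1, Calcoco1 and Optn, whose differences are within their SE, changed sign in 1, 3, 2 and 1 of the values. Median-of-ratios scaling moved the median of all genes from -0.004 to 0.002. With the replicate number as a block, 3 genes passed, the member median stayed at 0.06, and 0 pathway genes had an unadjusted p under 0.05. The numbers do not pair the samples: deviations of same-numbered libraries correlated at -0.08, -0.02 and -0.04 over genes, and 0 of 6 libraries correlated best with its own number. With a mean of at least 5 FPKM Optn was not tested and gives no value. With 3 libraries a group, the 95% interval of a log2 difference had a median half-width of 0.26 over all genes tested. The SE of the members lay between 0.05 (Tax1bp1) and 0.18 (Optn), so this width is not that of each member. The members were chosen with this comparison known, so no p-value is read from their differences, and no member passed the adjusted threshold.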

Other observations

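Within the groups, several members had their highest value in the same-numbered library, although the numbers do not pair the mice. Control replicate 2 held the highest Control value of 6 of the 10 members, and AngII replicate 2 the highest AngII value of 6. For 5 genes, Fundc1, Park7, Sqstm1, Tax1bp1 and Calcoco1, it was replicate 2 in each group. The share of all genes with this order was not counted, so these counts are not shown to be particular to the members. Ulk1 had its lowest value in replicate 2 of each group, at 6.78 and 6.999 FPKM. Optn was highest in Control replicate 3 and AngII replicate 2, and Bnip3l in Control replicate 2 and AngII replicate 3.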
